A study of Mus musculus with 19 samples.

Results

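The Ly6 surface antigens examined here are 5 genes of mouse chromosome 15, Ly6a, Ly6c1, Ly6c2, Ly6d and Ly6e, of 28692 genes in the deposited tables, together with 2 of 111 antibodies, Ly-6A/E (also called Sca-1) and Ly-6C. They were chosen by name and not by any measured value, and all 5 RNAs and both antibodies were followed through thymocyte stages, lineages and genotypes. The data are CITE-seq, in which antibodies tagged with DNA report surface proteins beside the RNA of the same cell, on thymocytes of 17 female mice aged 4 to 8 weeks. Wild-type C57BL/6 mice (B6) were measured in 5 replicates. CD4-fated mice were 2 each of AND, OT-II and MHCI-/-, and CD8-fated mice were 2 each of F5, OT-I and MHCII-/-.

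The T cell receptor (TCR) of AND and OT-II mice is a transgene that recognizes MHC class II, whereas that of F5 and OT-I mice recognizes MHC class I. MHCI-/- mice lack B2m, the light chain of MHC class I, and MHCII-/- mice lack H2-Ab1, and both keep diverse TCRs. AND and F5 mice are also Rag1-/-, so that nearly all their T cells carry the transgenic receptor, whereas OT-I and OT-II keep Rag1. The F5 chains are driven by CD2 sequences, and the AND line has a B10 origin. Thymocytes of the MHC-deficient mice and of B6 replicates 1 to 3 were sorted as CD5+TCRb+ cells before capture, whereas B6 replicates 4 and 5 and all TCR-transgenic mice were unsorted. Every OT-I, OT-II and unsorted B6 mouse was run in the third of 3 experiments, at another site, so that site and genotype cannot be told apart for the OT lines except against the 2 unsorted B6 mice.

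Ly6 genes encode small proteins held by disulfide bonds in a compact fold, which a glycosylphosphatidylinositol (GPI) anchor fixes in the outer leaflet of the membrane. Several are long-standing markers of leukocyte subsets. Ly6a encodes Sca-1, a marker of blood stem cells and of activated or mature T cells that responds to interferons. Ly6c1 and Ly6c2 encode the closely related antigens read together by Ly-6C antibodies, which mark memory and effector CD8 T cells and inflammatory monocytes. Ly6e encodes TSA-1, an antigen of immature thymocytes, and Ly6d (ThB) is known from B cell progenitors and thymocytes. In the name of the Ly-6A/E antibody, A and E stand for alleles of Ly6a and not for the gene Ly6e.

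In the GRCm38 annotation the 5 genes lie in 1 stretch of chromosome 15, Ly6d at 74762056 to 74763620, Ly6e at 74955051 to 74959905, Ly6a at 74994877 to 74998031, Ly6c1 at 75044018 to 75048830 and Ly6c2 at 75108158 to 75111970. Ly6e is on the plus strand and the other 4 on the minus strand. The Ly6c genes are close copies. Of all possible reads of 91 bases in the last 500 bases of the transcripts, 13.5% of those of Ly6c1 also occur in Ly6c2 or Ly6a and 19.1% of those of Ly6c2 also occur in Ly6c1, against 0 for Ly6a, Ly6d and Ly6e. Stretches of Ly6c1 that occur in Ly6a lie outside the last 500 bases of its coding transcripts, so that reads from that part of Ly6a would also be uncertain. Part of the Ly6c reads is therefore uncertain between the genes, how the counting split them is not known here, and the Ly-6C antibody reads both Ly6c products.

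The bases just upstream of the Ly6c pair are shown because the 2 genes are near copies whose RNA was found in different single-positive (SP) cells. Both runs read 5′ to 3′ on the minus strand and lie outside annotated exons, from the RefSeq promoter table of GRCm38.p6, Ly6c1 at chr15:75048921-75049056 and Ly6c2 at chr15:75112088-75112221. Capitals mark bases that differ from the other gene or have no partner in it.
Ly6c1: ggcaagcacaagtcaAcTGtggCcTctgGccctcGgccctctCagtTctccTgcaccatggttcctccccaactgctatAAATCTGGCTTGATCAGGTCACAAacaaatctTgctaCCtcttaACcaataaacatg
Ly6c2: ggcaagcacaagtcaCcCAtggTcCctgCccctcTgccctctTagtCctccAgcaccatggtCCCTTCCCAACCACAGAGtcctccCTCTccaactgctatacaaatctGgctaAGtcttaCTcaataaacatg
Of 112 aligned columns with a base in both genes, 97 were identical (86.6%), and each gene had a block the other lacks. The RUNX motif TGTGGT, searched on both strands, was found in both promoter windows listed for Ly6c2 (2 of 2) and in 0 of 2 windows of Ly6c1, against 16.8% of 32851 windows of all genes. In the Ly6c2 run above it reads ACCACA, inside the capitals. The GAS motif TTCNNNGAA and the core of the interferon response element (GAAA, any 2 bases, GAAA) were in no window of either gene, against 8.30% and 3.44% of all windows. These are matches of letters only, and whether the 2 windows of a gene share bases, and so the same match, was not examined. The RefSeq table matched 2 of the 5 genes.

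Stages were set by surface protein, and RNA did not place a cell in 1 gate rather than another. RNA clusters made without Ly6 genes served only to leave out 104 B cell-like and 762 myeloid or dendritic-like cells from all gates. The Ly6 levels of these cells are given with the clusters below. CD4, CD8a, TCRb and CD24 antibodies gave double-positive (DP) cells with low or high TCRb, and CD4 SP and CD8 SP cells with high or low CD24, CD24 being lost as SP cells mature. The paper also places a late DP stage with high TCRb, called DP3, on the path of CD8-fated but not CD4-fated cells. DP TCRb-high cells can include it. The gate is therefore not simply the stage before CD4 SP, and it can hold unlike stages in mice of different fate. The part of DP3 cells in it was not resolved. The 19 lanes held 85389 barcodes with 9893333 to 43303999 RNA UMIs (unique molecular identifiers) a lane, and 69233 cells were kept. Of the distinct barcode sequences 0.974% occurred in more than 1 lane. RNA UMIs were summed per mouse and gate and are given as counts per 1000000 (CPM), with n the number of mice. CPM were not divided by transcript length, so levels are compared within a gene. Antibodies are given as UMIs per 10000 UMIs of the panel. Of the deleted genes, B2m RNA was 46.8 and 48.9 CPM in the MHCI-/- mice where the rest read 403 to 1260, and the I-A/I-E antibody was 2.22 and 2.26 per 10000 in the MHCII-/- mice where the rest read 23.9 to 124. H2-Ab1 RNA over all cells did not set the MHCII-/- mice apart (8.96 and 8.72 CPM against 2.98 to 260.5), nor did Rag1 RNA set AND and F5 mice (5.69 to 54.0 CPM) apart from OT-I mice (27.0 and 52.5). Among 17 mice 4 stood apart in ways that touch the results. B6 replicate 5 held 245 to 338 CPM of Rag1, a gene of pre-selection DP cells, in its SP gates, where the other B6 mice held 1.39 to 35.5. AND replicate 2 had a median of 1100 antibody UMIs a cell, the lowest of all lanes, and Ly-6C at 19.1 to 22.2 per 10000 in each of 5 gates. Both OT-I mice read low for Ly-6C, at 1.59 to 4.32 per 10000 in these gates, though replicate 2 lay within the range of the other mice in DP TCRb-low cells (4.24).

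Ly6a rose along the CD4 lineage in wild-type mice and reached its highest level in mature CD4 SP cells. In the DP TCRb-low gate B6 replicates 1 to 5 had 3.13, 2.72, 4.68, 1.98 and 3.84 CPM of Ly6a. In the DP TCRb-high gate they had 0, 10.7, 4.13, 15.4 and 10.6 CPM. The ranges of the DP gates overlap. In the CD4 SP CD24-high gate the values were 53.9, 42.9, 33.7, 37.7 and 22.3 CPM, and in the CD4 SP CD24-low gate 149, 119, 125, 172 and 75.6 CPM. In all 5 mice CD4 SP CD24-high cells lay above DP TCRb-high cells, and CD4 SP CD24-low cells above CD24-high cells. CD8 SP cells of the CD24-high gate had 4.51, 7.85, 7.71, 12.7 and 0 CPM, and those of the CD24-low gate 15.1, 12.7, 25.2 and 14.1 CPM in replicates 2 to 5, the 4 mice with at least 20 such cells. The plot of the members by gate shows the climb on the CD4 side beside the lower CD8 SP values.

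By edgeR's quasi-likelihood test with Benjamini-Hochberg adjustment over all genes, Ly6a was higher in CD4 SP CD24-high than in DP TCRb-high cells by 2.17 ± 0.44 (log2, SE, adjusted p = 0.000706; with thresholds raised by 0.1 in log10 1.95 and adjusted p = 0.190) and rose by a further 1.90 ± 0.17 to CD24-low cells (adjusted p = 1.65e-09). Between CD24-low cells of both lineages it was lower in CD8 SP, a difference of -2.88 ± 0.27 (adjusted p = 3.93e-09). The difference between DP gates, 1.73 ± 0.64, did not pass (adjusted p = 0.0509), nor did that between CD8 SP gates, 1.27 ± 0.45 (adjusted p = 0.103). The first lay near the threshold, and both passed under some other settings given in the closing section. Whether the CD24-low step differs between lineages was tested as an interaction, and none of the 5 members passed (edgeR, adjusted p = 0.613 to 0.950), where 0.116% of 9509 genes did.

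**Figure D1:**
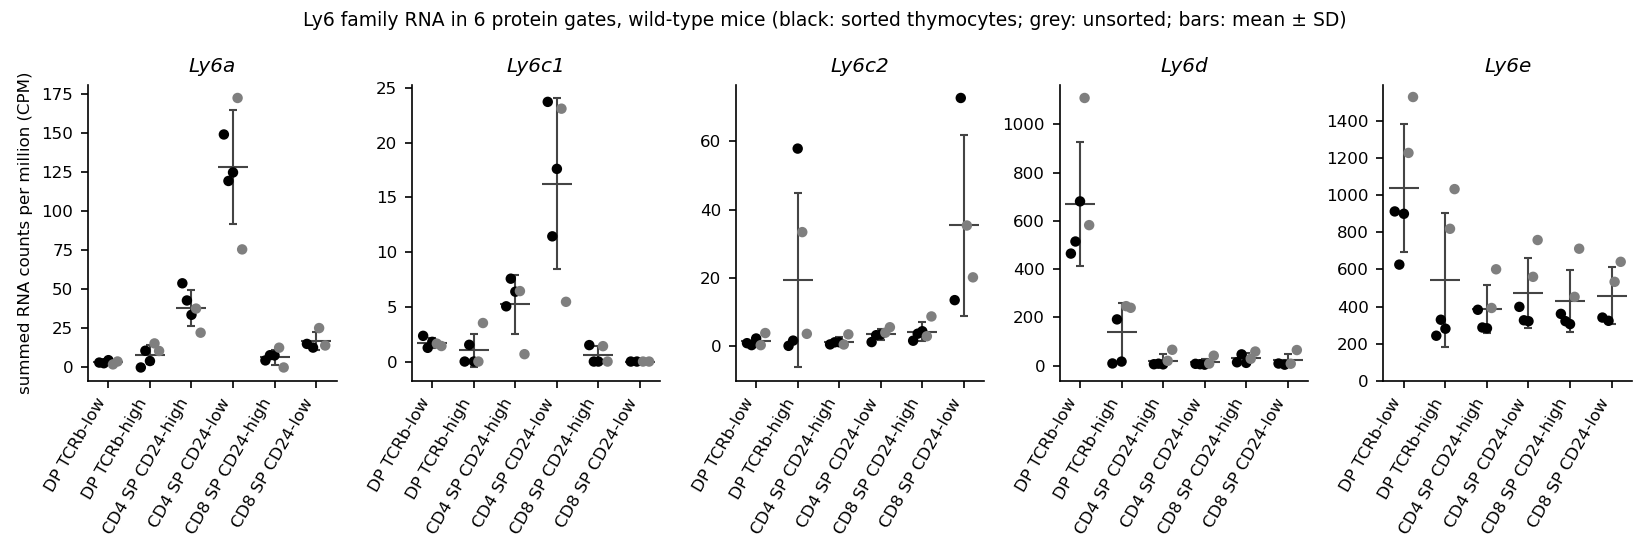
RNA of the 5 Ly6 genes in CPM (vertical axes, linear and separate for each gene) in 6 protein gates of wild-type mice, with 1 point a mouse, black for sorted and grey for unsorted thymocytes, and bars for the mean ± SD. Ly6a and Ly6c1 are highest in CD4 SP CD24-low cells, Ly6c2 in CD8 SP CD24-low cells and in 2 of 5 DP TCRb-high sums where 1 cell holds all its UMIs, and Ly6d and Ly6e in DP TCRb-low cells.

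Ly6c1 gave few UMIs but also rose on the CD4 side. Its level in CD4 SP CD24-high cells of B6 mice was 5.23 ± 2.70 CPM (SD, n = 5). In CD4 SP CD24-low cells the mice had 23.7, 11.4, 17.6, 23.1 and 5.46 CPM, each above its own CD24-high value, and the rise was 1.65 ± 0.28 (edgeR, log2, SE, adjusted p = 5.82e-05). No Ly6c1 UMI was seen in the CD8 SP CD24-low gate in any of the 4 mice, 0 of 3584120 UMIs together, which allows up to 0.837 CPM. Ly6c1 was therefore at least 19.4-fold higher in CD4 SP than in CD8 SP CD24-low cells, with the floor of 3 UMIs taken over the 4 mice (edgeR, adjusted p = 3.45e-06). The difference of CD4 SP CD24-high from DP TCRb-high cells, 2.45 ± 0.89, did not pass (edgeR, adjusted p = 0.0740), and it passed without B6 replicate 5 (3.37, adjusted p = 0.0236).

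Ly6c2 had the reverse lineage pattern. The CD8 SP CD24-low gate of B6 replicates 2 to 5 held 13.4, 72.7, 35.3 and 20.1 CPM of Ly6c2, against 1.10, 3.12, 3.30, 3.85 and 5.46 CPM in the CD4 SP CD24-low gate of replicates 1 to 5, with no overlap. The difference was 3.24 ± 0.56 in favor of CD8 SP cells (edgeR, log2, SE, adjusted p = 0.000145). CD8 SP CD24-high cells had 1.504, 3.57, 4.28, 2.81 and 8.62 CPM, and the rise to CD24-low cells was 3.15 ± 0.63 (adjusted p = 0.00143). Without B6 replicate 3, the mouse at 72.7 CPM, that rise was 2.56 and no longer passed (edgeR, adjusted p = 0.0808), nor did it with thresholds raised by 0.1 (2.31, adjusted p = 0.0504). On the CD4 side the same step, 1.72 ± 0.79, did not pass (adjusted p = 0.136). NKT markers also stood higher in the CD8 SP CD24-low gate, at a median of 172 summed CPM (range 136 to 209, 5 of 7 markers seen) against 37.4 in the CD4 SP CD24-low gate (13.3 to 77.4, 7 of 7 seen). The lineage difference of Ly6c2 passed in all 10 other settings with all mice kept. These include the fit without cells holding a Foxp3, Zbtb16, Trdc, Tcrg-C1 or Tcrg-C2 UMI. The part of cells with the other NKT markers in the Ly6c2 level was not tested.

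Ly6c2 in the DP TCRb-high gate rested on 4 cells. Its values were 0, 1.53, 57.9, 33.4 and 3.52 CPM in sums of 45 to 152 cells, and 1 cell in each of replicates 2 to 5 held all of them, with 1, 14, 13 and 1 UMIs, against 0.201 to 3.76 CPM in DP TCRb-low cells. The gain over the TCRb-low gate was 3.86 ± 0.77 (edgeR, log2, SE, adjusted p = 0.000308), and the difference of CD4 SP CD24-high from DP TCRb-high cells was -3.78 ± 0.84 (adjusted p = 0.00203). With these few cells neither call describes the gate at large. Both were lost when all gate thresholds were raised by 0.1 in log10, where every DP TCRb-high sum held 0 Ly6c2 UMIs and the fitted values (-5.28 and 4.56, edgeR, adjusted p = 0.762 and 0.882) give no direction. Without B6 replicate 3 the second was -3.02 and did not pass (edgeR, adjusted p = 0.0708).

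Among the 6 gates Ly6d was highest in DP TCRb-low cells. The B6 mice held 464, 515, 681, 1110 and 583 CPM of Ly6d in the DP TCRb-low gate and 8.69, 191, 16.5, 246 and 240 CPM in the DP TCRb-high gate, a difference of -2.26 ± 0.37 (edgeR, log2, SE, adjusted p = 2.45e-05). In the DP TCRb-high gate the unsorted replicates 4 and 5 also held the most Rag1 (554 and 1321 CPM against 8.69 to 65.9) and the most of 8 quiescent DP markers (3660 and 5242 summed CPM against 1232 to 1757), and the part of these in their Ly6d and Ly6e values was not tested. CD4 SP CD24-high cells had 5.47, 7.75, 4.97, 19.5 and 65.4 CPM, a further -3.10 ± 0.47 (adjusted p = 1.60e-05). In all 5 mice the DP TCRb-low value was above the others. The highest SP values were those of B6 replicate 5, the library whose SP gates also held the most Rag1 RNA, and the part of RNA from DP cells in them was not tested. The CD24-low steps did not pass in either lineage (adjusted p = 0.662 in CD4 SP and 0.554 in CD8 SP), nor did the difference between CD8 SP and CD4 SP (adjusted p = 0.791).

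Ly6e was read in every gate with at least 20 cells, in all mice. It had 912, 626, 899, 1227 and 1528 CPM in the DP TCRb-low gate and 243, 329, 281, 819 and 1032 CPM in the DP TCRb-high gate, where each mouse was below its own TCRb-low value. The difference was -0.97 ± 0.13 (edgeR, log2, SE, adjusted p = 1.93e-06), and it did not pass without the mouse block (-0.94, adjusted p = 0.0790). From DP TCRb-high to CD4 SP CD24-high cells Ly6e did not pass (adjusted p = 0.279), and it then rose by 0.40 ± 0.12 to CD24-low cells (adjusted p = 0.0170), with 399, 326, 322, 560 and 758 CPM there. That rise did not pass without B6 replicate 2 (0.40, edgeR, adjusted p = 0.0612), without replicate 4 (0.33, adjusted p = 0.0977) or with library size as the only scaling (0.25, adjusted p = 0.120), where the median of all genes was -0.17 against -0.01 with TMM scaling. It was also lost without the mouse block (0.42, edgeR, adjusted p = 0.783). CD8 SP CD24-low cells had 341, 324, 533 and 641 CPM and the difference from CD4 SP did not pass (edgeR, adjusted p = 0.931). Ordered by the mean over B6 mice, Ly6e ran from DP TCRb-low (1038 ± 347 CPM, SD, n = 5) through DP TCRb-high, CD4 SP CD24-low, CD8 SP CD24-low and CD8 SP CD24-high to CD4 SP CD24-high (389 ± 129 CPM), and neighbors in that order overlapped. The second place of DP TCRb-high came from the 2 unsorted mice (mean 925 CPM), whereas in the 3 sorted mice it was the lowest gate (285 ± 43.1 CPM, against 318 ± 56.3 in CD4 SP CD24-high).

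Counted over the family, 3 of 5 members passed between the DP gates, where 22.1% of 9509 genes did, and 3 of 5 from DP TCRb-high to CD4 SP CD24-high, where 11.6% did, Ly6c2 with its 4 cells among them in both. For the CD24-low step 3 of 5 passed in CD4 SP (19.1% of genes) and 1 of 5 in CD8 SP (5.63%), and between the mature lineages 3 of 5 passed (10.4%). With 5 genes these counts describe the members and no more. Of 28 other genes of the Ly6/uPAR family in the tables, 4 had enough counts to be tested in wild-type mice, Ly6k, Lynx1, Lypd6b and Plaur. Plaur, the urokinase receptor, was higher in CD8 SP than in CD4 SP CD24-low cells by 2.66 ± 0.53 (edgeR, log2, SE, adjusted p = 0.000812), and no other of the 4 passed in that comparison. Between the DP gates Plaur was higher (3.82 ± 1.02, adjusted p = 0.00607) and Lypd6b lower (-1.12 ± 0.38, adjusted p = 0.0305) in TCRb-high cells. Plaur gave few UMIs, 1009 over all kept cells (2.64 CPM), and how many cells held them in these gates was not counted.

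GPI-anchored proteins outside the Ly6 family were listed for comparison. For the CD24-low step in CD4 SP cells 5 of 12 tested genes rose and 2 fell, where 11.1% of all genes rose and 8.01% fell, with a median of 0.08 (log2) against -0.01 over all genes. Nt5e, the ectoenzyme CD73, rose by 2.75 ± 0.38 (edgeR, log2, SE, adjusted p = 2.73e-06). Cd24a changed by -2.36 ± 0.26, and CD24 protein defined that gate. Of 26 tested genes for making and attaching the anchor 1 rose and 1 fell, with a median of 0.04. Interferon-stimulated genes, a class to which Ly6a and Ly6e are known to belong, rose in 22 of 35 tested (62.9%) with none falling and a median of 0.43, and Ifit3 rose by 1.54 ± 0.23 (edgeR, adjusted p = 6.98e-06). Between the DP gates 27 of 35 rose (median 1.4998, log2), where 10.8% of all genes did, while Ly6e fell. Maturation genes of SP thymocytes rose in 11 of 20 and fell in 4 between the CD4 SP gates (median 0.65). That list also holds Rag1, Ccr9 and Cd24a, which the paper describes as falling with maturation, so its genes share no expected direction.

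The genes whose levels ran most like each member, by Pearson's r of log2(CPM + 1) over 29 sums of the B6 mice, are a description, since the sums share libraries, mice and depth. For Ly6a they were Ifi30 (r = 0.914), H2-T24, St8sia6, Il6ra and Igfbp4, and for Ly6c1 Tbc1d16 (0.869), Drosha, Nacc2, Pecam1 and Prlr. For Ly6c2 they were Ahnak (0.750), Cst7, Klrd1, Amica1 and Lcn4, of which Cst7 and Klrd1 are known from cytotoxic lymphocytes. Ly6d ran with Desi1 (0.969), Endou, Rmnd5a, Arpp21 and Aqp11, and Ly6e with Rad21 (0.918), G2e3, Insl5, Nfatc3 and Zbed4. Among members, r was 0.808 for Ly6d and Ly6e, 0.737 for Ly6a and Ly6c1, and -0.484 for Ly6c1 and Ly6c2.

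Surface Ly-6A/E also rose along the CD4 lineage. In B6 replicates 1 to 5 it stood at 28.9, 27.0, 31.1, 20.9 and 19.6 UMIs per 10000 in DP TCRb-low cells and at 80.3, 69.7, 70.4, 47.4 and 38.9 in CD4 SP CD24-high cells. CD4 SP CD24-low cells had 259, 227, 259, 230 and 138 per 10000, above every other gate, and CD8 SP CD24-low cells of replicates 2 to 5 had 49.4, 46.1, 52.8 and 25.7. Over all 17 mice DP TCRb-low cells ranged from 13.7 to 51.4.

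Within mice of all genotypes, Ly-6A/E in CD4 SP CD24-high cells was above that in DP TCRb-high cells by 0.73 ± 0.70 (log2, SD, n = 14 mice, 11 higher, exact sign-flip permutation, two-sided, adjusted p = 0.00977 over 10 comparisons). The 3 mice without a rise were CD8-fated, both MHCII-/- mice (18.7 against 21.4 and 21.4 against 23.2 per 10000) and OT-I replicate 1 (13.3 against 16.4), and whether the lineages differ in this step was not tested. CD24-low cells were above CD24-high cells by a further 1.61 ± 1.01 (n = 14, 13 higher, exact permutation, adjusted p = 0.00244). The exception was OT-I replicate 2, with 15.6 against 21.9 per 10000 and 30 CD24-low cells. CD8 SP CD24-low cells were lower than CD4 SP CD24-low cells in all 7 mice with both, a mean difference of -2.01 ± 0.79 (exact permutation, adjusted p = 0.0313, from the smallest p the design allows). The 7 were B6 replicates 2 to 5, both OT-I mice and MHCII-/- replicate 2. The CD8-fated mice among them had few CD4 SP CD24-low cells, 31 and 30 in OT-I and 20 in MHCII-/-. B6 replicates 2 to 5 alone are too few to pass this test. With gate thresholds raised by 0.1 the difference was -1.79 and did not pass (exact permutation, adjusted p = 0.0781). Between the DP gates (0.08 ± 0.29, n = 15) and the CD8 SP gates (0.38 ± 0.70, n = 10) the exact permutation test did not pass (adjusted p = 0.458 and 0.208).

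Surface Ly-6C stayed low in most gates. Leaving AND replicate 2 aside, it ranged from 2.29 to 6.61 per 10000 in DP TCRb-low cells. It was higher in CD24-low than in CD24-high CD4 SP cells in 14 of 14 mice, by 0.69 ± 0.68 (log2, SD, exact sign-flip permutation, adjusted p = 0.00122), and in 9 of 10 mice in CD8 SP cells, by 0.75 ± 0.91 (exact permutation, adjusted p = 0.00977). With gate thresholds raised by 0.1 these were 0.34 and 0.43 and did not pass (exact permutation, adjusted p = 0.0781 and 0.176). B6 replicate 3 had 31.6 per 10000 in CD8 SP CD24-low cells, the other B6 mice 5.63 to 7.21 and the MHCII-/- mice 15.6 and 24.5. B6 replicate 3 also had the most Ly6c2 RNA there, 72.7 CPM. The difference between the lineages in CD24-low cells did not pass (0.05 ± 1.01, n = 7, exact permutation, adjusted p = 0.906), nor did those between the DP gates or from DP TCRb-high to CD4 SP CD24-high (exact permutation, adjusted p = 0.496 and 0.706). The plot of antibodies by gate shows the CD4-side rise of Ly-6A/E against the low Ly-6C.

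**Figure D2:**
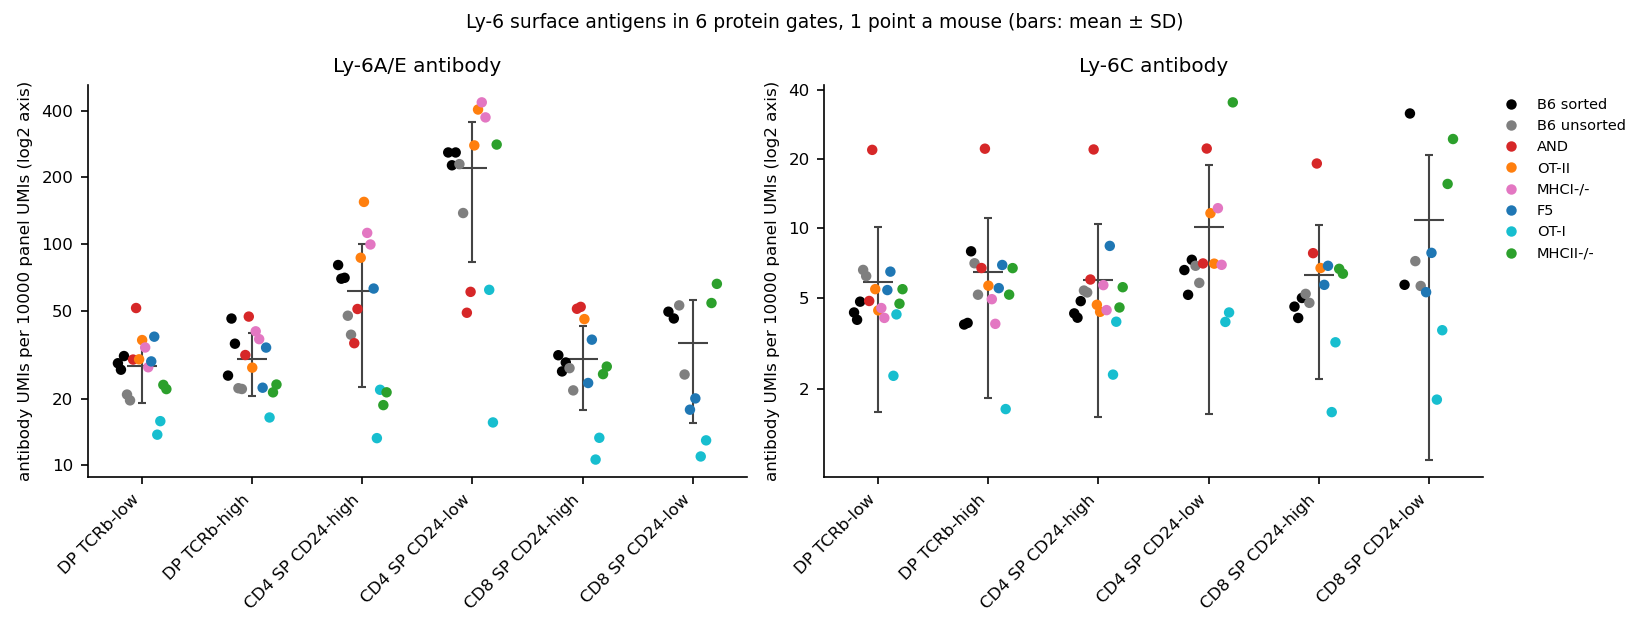
Ly-6A/E and Ly-6C antibody UMIs per 10000 panel UMIs (vertical axes, log2 scale) in 6 protein gates, with 1 point a mouse colored by genotype and bars for the mean ± SD over all mice. Ly-6A/E reaches 437 in CD4 SP CD24-low cells, where the AND and OT-I mice stay at or below 62.1, and the row of Ly-6C points between 19.1 and 22.2 is AND replicate 2.

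RNA and protein were then compared in the same cells. Among CD4 SP CD24-low cells, those with a Ly6a UMI had 440 ± 187 Ly-6A/E UMIs per 10000 and those without had 147 ± 51.0 (SD, n = 9 mice). The difference was 1.52 ± 0.33 (log2, SD), higher in 9 of 9 mice (exact sign-flip permutation, adjusted p = 0.0156 over 8 comparisons). Cells with a Ly6c1 or Ly6c2 UMI had 25.5 ± 21.4 Ly-6C UMIs per 10000 against 5.67 ± 0.698, a difference of 1.89 ± 0.90 in 7 of 7 mice (exact permutation, adjusted p = 0.0313). The crossed pairs also differed. Cells with a Ly6c1 or Ly6c2 UMI had more Ly-6A/E, by 1.00 ± 0.32 (n = 7, exact permutation, adjusted p = 0.0313), and cells with a Ly6a UMI more Ly-6C, by 0.83 ± 0.89 (n = 9, exact permutation, adjusted p = 0.0156). Whether the matched and crossed differences differ from each other was not tested. Median RNA depth was 5613 against 5231 UMIs for Ly6a and 5913 against 5778 for the Ly6c pair.

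In CD8 SP CD24-low cells 4 mice had enough cells with a Ly6c1 or Ly6c2 UMI. Ly-6C was 74.1 ± 57.7 per 10000 in these and 5.97 ± 2.93 in the rest (SD, n = 4), a difference of 3.03 ± 1.29 (log2) with all 4 mice higher. The exact permutation p of 0.125 is the smallest 4 mice can give. Ly-6A/E in the same cells was 60.004 ± 42.3 against 40.7 ± 20.3. Median depth was 10221 UMIs in cells with and 8920 in cells without a UMI. The plot of antibodies in cells with and without a UMI shows each of these mice as a line.

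**Figure D3:**
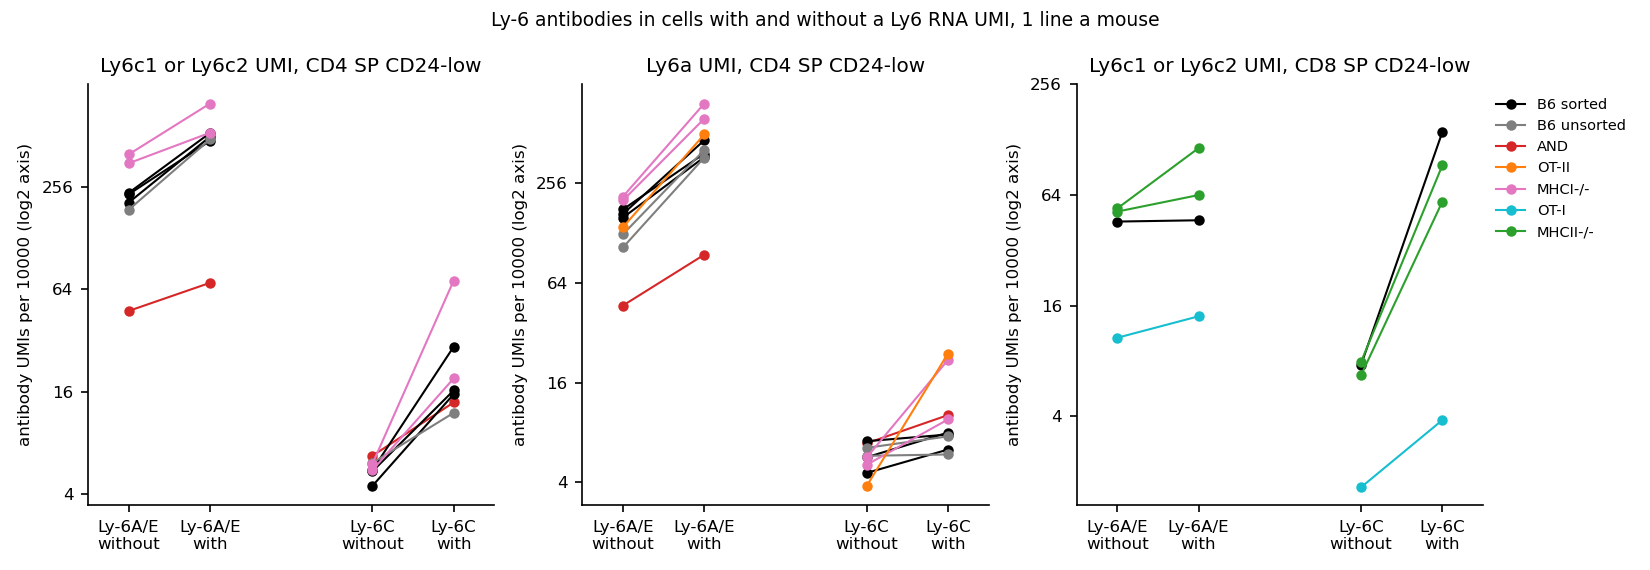
Ly-6A/E and Ly-6C antibody UMIs per 10000 panel UMIs (vertical axes, log2 scale) in cells without and with a UMI of the named RNA, with 1 line a mouse colored by genotype. Every line of a matched RNA and antibody rises, and Ly-6C in CD8 SP CD24-low cells goes from a mean of 5.97 to 74.1 per 10000 over 4 mice.

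The lineage-restricted mice allowed the same comparison with the lineage set by genotype. Ly6a in CD4 SP CD24-low cells was 11.96 and 5.59 CPM in AND, 206 and 156 in OT-II and 216 and 142 in MHCI-/- mice. In CD8 SP CD24-low cells it was 0 and 0 in F5, 3.60 and 2.04 in OT-I and 21.5 and 33.9 in MHCII-/- mice. CD8-fated mice were lower, a difference of -3.64 ± 0.40 (edgeR, log2, SE, 6 against 6 mice, adjusted p = 2.94e-06), though MHCII-/- mice lay above both AND mice. Ly6c2 had the opposite sign, 1.99 ± 0.68, and did not pass (edgeR, adjusted p = 0.0779). It passed with the replicate number as a block (2.33, edgeR, adjusted p = 0.00130) and when 1 of 3 mice was left out, OT-I replicate 1 (2.34, adjusted p = 0.00277), OT-I replicate 2 (2.30, adjusted p = 0.00520) or OT-II replicate 1 (3.12, adjusted p = 2.88e-05). Ly6e did not pass (adjusted p = 0.596). Ly6c1 and Ly6d did not meet the filter on low counts, so that 1 of 3 tested members was called, where 8.24% of 8919 genes were. In the DP TCRb-high gate 0 of 2 tested members (Ly6d and Ly6e, edgeR, adjusted p = 0.866 and 0.511) was called and 0% of 7392 genes, while the other 3 members had too few counts.

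Surface Ly-6A/E in the same mature gates was 30.3 ± 23.6 per 10000 in CD8-fated and 268 ± 173 in CD4-fated mice (SD, n = 6 each), a log2 difference of -3.04 (exact permutation, two-sided, adjusted p = 0.0433 over 4 comparisons). In DP TCRb-high cells it was 23.5 ± 6.45 against 36.7 ± 7.56 (n = 5 each), a difference of -0.66 (exact permutation, adjusted p = 0.0476). A gap of similar size stood in DP TCRb-low cells, at 23.7 ± 9.001 against 35.0 ± 8.64 (n = 6 each, log2 difference -0.62, exact permutation, two-sided, unadjusted p = 0.0455). In the 10 mice with a DP TCRb-high value it was -0.496 (exact permutation, unadjusted p = 0.135). DP TCRb-low cells are not limited to cells before selection. In B6 mice they held 665 to 2702 summed CPM of signaled DP markers. The DP TCRb-low gap was examined after the other values were seen, and whether it differs from that in DP TCRb-high cells was not tested. Unlike the RNA fit, these antibody tests took no account of genotype family. The mature difference did not pass without F5 replicate 1, MHCI-/- replicate 1 or 2, MHCII-/- replicate 1 or OT-I replicate 1 (-3.27 to -2.80, exact permutation, adjusted p = 0.0519 to 0.0779), and that in DP TCRb-high cells did not pass without either AND, MHCI-/- or MHCII-/- mouse, F5 replicate 1 or OT-I replicate 1 (-0.71 to -0.54, exact permutation, adjusted p = 0.0635 to 0.0952). Ly-6C did not differ past the threshold in either gate (-0.57 and -0.58, exact permutation, adjusted p = 0.476 in both). Both signs rested on 3 mice that read high or low for Ly-6C in most gates. Without AND replicate 2 and both OT-I mice the differences were 0.37 and 0.22 (exact permutation, adjusted p = 0.460 and 0.419), and those of Ly-6A/E were -2.87 and -0.45 and did not pass (adjusted p = 0.127 and 0.171).

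Genotypes of 1 lineage also differed. AND mice were below MHCI-/- mice in CD4 SP CD24-low cells for Ly6a, by -4.44 ± 0.43 (edgeR, log2, SE, n = 2 each, adjusted p = 7.33e-05), and for Ly6e, by -1.52 ± 0.31 (187 and 97.5 against 403 and 347 CPM, adjusted p = 0.0117). The Ly6e call was lost without AND replicate 2 (-1.14, edgeR, adjusted p = 0.218) and without MHCI-/- replicate 1 (-1.36, adjusted p = 0.136). Ly6c1, Ly6c2 and Ly6d did not pass (adjusted p = 0.269, 0.320 and 0.553). These 2 of 5 members compare with 3.43% of 9786 genes called. Ly-6A/E was 48.9 and 60.8 per 10000 in AND against 437 and 374 in MHCI-/- mice. In the same comparison 25 of 35 interferon-stimulated genes fell and none rose, where 3.05% of all genes fell, with a median of -1.60 (log2) against 0.01 over all genes, and Iigp1, Ifit3 and Oas1a were among them at -6.80, -4.29 and -4.96 (log2). Genes of this list were also lower, and none higher, in 2 comparisons of CD8 SP CD24-low cells, 6 of 33 in F5 against MHCII-/- mice (median -2.54, with 0.232% of all genes lower) and 2 of 33 in OT-I against unsorted B6 mice (median -0.78, with 0.0812% of all genes lower). In MHCII-/- against sorted B6 mice 0 of 33 were called (median -0.05), where 0.0348% of all genes were. In CD4 SP CD24-low cells 0 of 35 were called in MHCI-/- against sorted B6 mice (median 0.04) and in OT-II against unsorted B6 mice (median 0.01). There 0.0307% of all genes were called in each. Of CD8-fated against CD4-fated mice 15 of 35 were lower (median -0.61), where 4.47% of all genes were. AND mice differ from MHCI-/- mice in the fixed receptor, in Rag1, in keeping B2m, in origin and in not being sorted, which cannot be told apart. AND replicate 1 was also run in another experiment than both MHCI-/- mice, while AND replicate 2 shared theirs.

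MHCI-/- and sorted B6 mice did not differ past the threshold in any of 5 members (0.0307% of 9786 genes called, edgeR, all adjusted p = 1), with 0 members under an unadjusted p of 0.05, where 1.23% of genes were. Ly6a was 216 and 142 CPM in MHCI-/- mice and 149, 119 and 125 in sorted B6 mice. OT-II and unsorted B6 mice likewise had 0 of 5 members called (0.0307% of genes). Ly6c2 was there at an unadjusted p of 0.0141 (edgeR, 2.72 ± 0.97, adjusted p = 0.727), with 46.1 CPM in OT-II replicate 1 and 0 in replicate 2, and Ly6e at 0.0479 (-0.68 ± 0.31, adjusted p = 0.789), where 6.28% of genes were under 0.05. The 46.1 CPM came from 19 UMIs in 3 of 76 cells. OT-II replicate 2 had 0 of 179915 UMIs, which allows up to 16.7 CPM, so that it gives no direction against unsorted B6 mice at 3.85 and 5.46 CPM.

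In CD8 SP CD24-low cells, F5 mice had 0 Ly6a and 0 Ly6c2 UMIs in sums of 22 and 21 cells, together 195313 UMIs, against 21.5 and 33.9 CPM of Ly6a and 44.3 and 58.0 CPM of Ly6c2 in MHCII-/- mice. The floor of 3 UMIs over both F5 mice makes MHCII-/- at least 1.81-fold higher for Ly6a and at least 3.33-fold higher for Ly6c2. With only F5 replicate 1 or 2 these limits were 1.001 and 0.805 for Ly6a, which is no bound above 1, and 1.84 and 1.48 for Ly6c2. Neither gene passed the test (edgeR, adjusted p = 0.291 and 0.387). Ly6e, at 203 and 91.9 CPM in F5 and 315 and 320 in MHCII-/- mice, differed by -1.32 ± 0.35, with a median of -0.16 over all genes, and did not pass (edgeR, adjusted p = 0.199). The count was 0 of 4 tested members, against 0.325% of 8621 genes. MHCII-/- against sorted B6 mice gave 0 of 4 (0.0348% of genes), and OT-I against unsorted B6 mice 0 of 4 (0.0812%). At an unadjusted p under 0.05 the 4 members gave 3 in F5, 1 in MHCII-/- and 4 in OT-I mice, where all genes gave 9.77%, 1.8% and 4.93%, and these counts are a description.

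OT-I mice had 3.60 and 2.04 CPM of Ly6a in CD8 SP CD24-low cells where unsorted B6 mice had 25.2 and 14.1, a difference of -2.72 ± 0.52 (edgeR, log2, SE, adjusted p = 0.0878). Ly6c2 was 7.20 and 8.15 CPM against 35.3 and 20.1 (-1.94 ± 0.70, adjusted p = 0.759). Ly6d was 0 and 0.679 CPM against 7.57 and 64.3 (-6.96 ± 1.27, adjusted p = 0.0722), where the higher value is again B6 replicate 5. Ly-6A/E was 10.95 and 12.95 per 10000 against 52.8 and 25.7. OT-I also held low Ly6d in the DP TCRb-low gate, 153 and 96.5 CPM, beside 294 and 89.2 CPM in the AND mice and 433 CPM or more in the other genotypes. The plot by genotype shows Ly6a in another gate, CD4 SP CD24-low, where AND and OT-I mice lay below the other genotypes. The OT-I values there come from 31 and 30 cells.

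**Figure D4:**
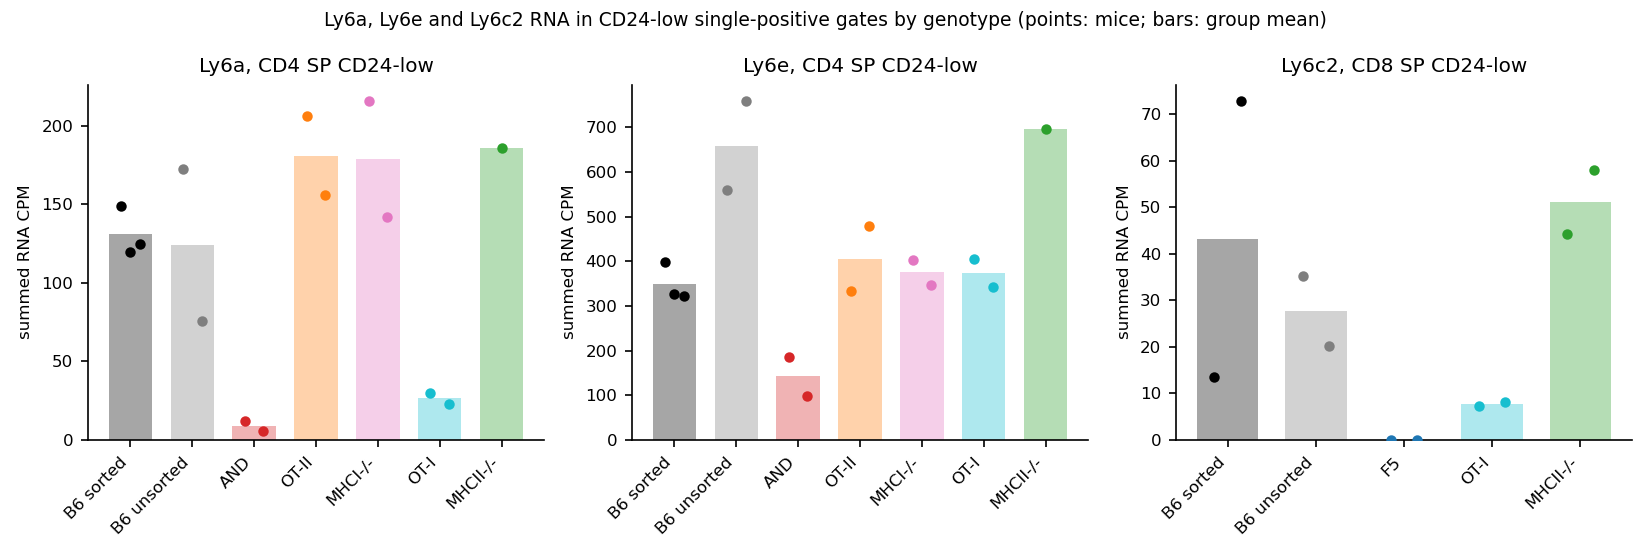
RNA in CPM (vertical axes from 0) of Ly6a and Ly6e in CD4 SP CD24-low cells and of Ly6c2 in CD8 SP CD24-low cells, with 1 point a mouse and bars for the group mean. Ly6a is at 5.59 to 29.97 CPM in AND and OT-I mice and at 75.6 to 216 elsewhere, and Ly6c2 is at 0 in F5 mice. The MHCII-/- bar of the CD4 SP panels is 1 mouse with 20 cells, and the OT-I points there are sums of 31 and 30 cells.

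The CD4 SP gates of MHCII-/- mice were read as well. The 20 CD4 SP CD24-low cells of MHCII-/- replicate 2 had 186 CPM of Ly6a, 72.8 of Ly6c2 and 695 of Ly6e, with Ly-6A/E at 282 and Ly-6C at 35.3 per 10000. CD4 SP CD24-high cells of the MHCII-/- mice had 0.702 and 0.684 CPM of Ly6a, against 22.3 to 53.9 in B6. These need not be cells of the same stage, since the paper finds that CD8-fated cells pass through a CD4+CD8lo stage. Quiescent DP markers stood at 737 and 680 summed CPM in this gate of MHCII-/- mice. In B6 mice they were at 188 to 379 in replicates 1 to 4 and at 1243 in replicate 5. The part of such cells in the Ly6a values was not tested. No test was made, since 1 mouse entered the first of these gates.

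Among CD4 SP cells with a Foxp3 UMI, the transcription factor of regulatory T cells, Ly6e was higher than in cells without in 6 of 6 mice, by 0.59 ± 0.19 (log2, SD, exact sign-flip permutation p = 0.0313, the smallest the design gives, adjusted p = 0.219 over 7 readouts). Ly6a was lower in 5 of 6 mice, at 36.2 ± 32.7 against 78.9 ± 22.4 CPM (SD, exact permutation, adjusted p = 0.219). Ly-6A/E was lower in 5 of 6, by -0.63 ± 0.60 (exact permutation, adjusted p = 0.219). None of the 7 readouts passed the adjustment.

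RNA clusters, made without Ly6 genes and named by marker lists, placed the members among rarer cells as a description with no test. Ly6a was highest in 104 B cell-like cells (910 ± 389 CPM, SD, n = 3 mice), then in interferon-like (184 ± 112, n = 13) and NKT-like cells (157 ± 105, n = 10), against 57.5 ± 33.2 in mature SP-like cells (n = 10). Ly6c1 was highest in interferon-like cells at 25.4 ± 18.4 CPM, followed by gamma-delta T-like (14.1 ± 13.8, n = 6) and mature SP-like cells (12.7 ± 6.92), and it was at 0 in B cell-like cells. Ly6c2 stood at 289 ± 397 CPM in myeloid or dendritic-like cells (n = 13), 213 ± 225 in B cell-like and 175 ± 115 in NKT-like cells, and at 33.8 ± 22.8 in CD8 SP-like cells (n = 10).

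Ly6d reached 2327 ± 1121 CPM in B cell-like, 1214 ± 684 in DN-like (double-negative, n = 7) and 871 ± 391 in quiescent DP-like cells (n = 13), and was at 72.3 ± 56.1 in signaled DP-like cells (n = 16). Ly6e spread over a narrower range, from 248 ± 173 CPM in the unnamed cluster 1 (n = 14) to 1744 ± 155 in B cell-like cells. Ly-6A/E was 475 ± 65.5 per 10000 in B cell-like, 317 ± 201 in NKT-like, 168 ± 45.01 in DN-like and 164 ± 95.0 in mature SP-like cells. Ly-6C was 130 ± 174 per 10000 in myeloid or dendritic-like and 77.8 ± 71.4 in NKT-like cells. Many neighbors in these orders overlap within 1 SD.

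As shares of cells, thinned to 1000 UMIs a cell to make depths equal, Ly6e was seen in 50.4% ± 14.3 of B6 DP TCRb-low cells (SD, n = 5 mice) and Ly6d in 27.0% ± 11.7, against 1.54% ± 2.00 for Ly6d in CD4 SP CD24-low cells. Ly6a was seen in 9.26% ± 2.79 of CD4 SP CD24-low cells against 0.201% ± 0.156 of DP TCRb-low cells. Ly6c2 was seen in 4.502% ± 2.30 of CD8 SP CD24-low cells (n = 4) against 0.446% ± 0.576 of CD4 SP CD24-low cells. Thinned to 2000 UMIs, the Ly6a shares were 16.3% and 0.365%. Without thinning, Ly6a was seen in 29.5% and 0.762% of cells at median depths of 5481 and 2485 UMIs, and Ly6c2 in 11.5% and 1.60% at 6752 and 5481 UMIs.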

How the data were processed

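Thymocytes of 17 mice were measured in 19 lanes. The deposited values are UMI counts of RNA and antibodies per cell, not normalized, which the authors made with Cell Ranger 3.1.0 on mm10 (GRCm38). Pooled tables repeating these lanes were not used. Cells were kept with at least 200 genes, at most 15% mitochondrial counts, 1000 to 10000 antibody UMIs and at least 70 of 111 antibodies seen, and called doublets were removed at 0.8% per 1000 cells (2821 of 72054). Lanes of 1 mouse were summed. Gates were cut where the 2 components of a mixture fitted per experiment to log antibody levels had equal posterior. Cells of the B cell-like and myeloid or dendritic-like RNA clusters were left out of these fits and of all gates. RNA counts were summed per mouse and gate with at least 20 cells and tested with edgeR 4.0.16 (R 4.3.3; TMM, filterByExpr, quasi-likelihood, adjusted p under 0.05), with a mouse block in the wild-type fit (29 sums), genotype family in the lineage fits and pooled group means per gate for genotypes. For the SE, each log2 fold change was divided by the root of its F statistic. Antibodies and Foxp3 cells (1 CPM added) were compared by exact permutation over mice. Clusters used scanpy 1.11.5 and leidenalg 0.10.2 at resolution 1, without Ly6 genes, on 2000 variable genes and 30 components with 7 nearest cells per experiment, and promoters were aligned with Biopython 1.88. The edgeR fits were tested on simulated counts first. Replicates are separate mice, and the floors of 3 UMIs cover counting error only.

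Named are the 5 members, both antibodies, the 5 most alike genes of each member and examples of fixed lists. The examples, the genotypes and libraries singled out and the interaction were chosen after values were seen, and all members and lists were chosen with earlier results of these data known. Alternatives were DESeq2 1.42.0, other scaling, a filter of at least 1 count, 50 cells a sum, gate thresholds moved by 0.1, doublets kept, other T cells removed, blocks and covariates added or dropped, each mouse left out, other pseudocounts, resolution and thinning.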

Additional observations from a re-analysis of the deposited data

Results flagged for a closer look

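In B6 replicate 5, Ly6d stood far above the other wild-type mice in 3 SP gates, at 65.4 CPM in CD4 SP CD24-high cells (next 19.5), 41.0 CPM in CD4 SP CD24-low cells (next 8.19) and 64.3 CPM in CD8 SP CD24-low cells (next 8.38). The same library had the most Rag1 in these gates, 338, 245 and 255 CPM against 1.39 to 35.5 in the other B6 mice, and the fewest RNA UMIs a cell, and the part of either in the Ly6d values was not tested. Ly6c2 in its CD4 SP CD24-high cells was 3.37 CPM, the next mouse being at 1.06. Its Ly-6A/E in CD4 SP CD24-low cells was 138 per 10000, the next mouse being at 227. In B6 replicate 3, Ly-6C of CD8 SP CD24-low cells was 31.6 per 10000 and the next mouse at 7.21. These 6 were found among 41 groups of 4 or 5 mice, where chance gives about 1 in 20.

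The Ly-6G and Gr-1 antibodies, features of 8 lanes of the third experiment that entered no comparison, gave few UMIs. The highest of the 8 lanes held 22 UMIs of Ly-6G and 30 of Gr-1, both in B6 replicate 4, of 34767126 antibody UMIs. Both exceed the 3 UMIs that a count of 0 allows, a limit that covers counting error only, and with no control samples these counts do not show signal above misread barcodes or antibody background.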

How the results depend on the processing

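Of 330 alternative values of member fold changes with all mice kept, 291 kept their direction and side of the threshold, 31 newly passed, 5 no longer passed and 3 turned sign. With 1 mouse left out at a time these were 149, 9, 6 and 1 of 165. For 14 comparisons of gene counts, 92 of 143 alternatives stayed within 1.5 times, and 38 of 77 with a mouse left out. Where no cause is named below, the cause was not tested. Depth limits Ly6c1 and Ly6c2, which rest on few UMIs in most gates, and the F5 sums of 22 and 21 CD8 SP CD24-low cells. Reads shared by the Ly6c copies cannot be assigned from the files. F5 against MHCII-/- gave no value at 50 cells a sum, with thresholds 0.1 lower or without cells holding a Foxp3, Zbtb16, Trdc, Tcrg-C1 or Tcrg-C2 UMI.

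Gate thresholds raised by 0.1 (log10) turned Ly6c2 between the DP gates from 3.86 to -5.28 and from DP TCRb-high to CD4 SP CD24-high from -3.78 to 4.56 (edgeR, adjusted p = 0.762 and 0.882), fits over sums with 0 UMIs that give no direction, and lowered by 0.1 turned Ly6a of MHCII-/- against sorted B6 mice from 0.96 to -0.23. Ly6c2 of OT-II against unsorted B6 mice, 2.72, ran from -6.27 to 3.38 with a mouse left out, the lowest fitted to 1 OT-II mouse with 0 UMIs. Ly6a between the DP gates (1.73) passed by DESeq2 (1.52, adjusted p = 0.0115), with both other scalings, genes of at least 1 count, 50 cells a sum, lowered thresholds, doublets kept, without cells holding the 5 named UMIs and without B6 replicate 1 or 5, and Ly6a between the CD8 SP gates (1.27) by DESeq2 (1.37, adjusted p = 0.0356), with genes of at least 1 count and with raised (2.28) or lowered (1.78) thresholds.

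In wild-type mice the number of genes called between the CD4 SP gates went from 1820 to 2737 with library size alone, where 23.6% of calls were higher in CD24-low cells against 58.1% with TMM scaling and the median of all genes was -0.17. With library size alone the share of higher calls also fell from 54.1% to 25.8% for CD4 SP CD24-high against DP TCRb-high and from 67.7% to 29.3% between the CD8 SP gates, with medians of -0.13 and -0.14. Without the mouse block the calls between the DP gates fell from 2102 to 795, from DP TCRb-high to CD4 SP CD24-high from 1102 to 218, between the CD4 SP gates to 267, between the CD8 SP gates from 535 to 54, between the lineages from 985 to 249 and for the interaction from 11 to 1. Raised thresholds gave 964, 325 and 6 calls for the first, second and last of these, lowered ones 1846 for the second, and genes with at least 1 count gave 160 for the interaction. Leaving out a mouse gave 1213 to 1638 calls between the CD4 SP gates (lowest without B6 replicate 2), 707 to 1072 from DP TCRb-high to CD4 SP (lowest without replicate 4), 300 to 475 between the CD8 SP gates, 560 to 889 between the lineages and 1 to 10 for the interaction, all 3 lowest without replicate 2.

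Of CD8-fated against CD4-fated mice, the 735 genes called in mature gates became 1238 with genes of at least 1 count and 396 to 1362 with a mouse left out (lowest without MHCI-/- replicate 2, highest without OT-I replicate 2). In DP TCRb-high cells edgeR called 0 genes and DESeq2 38, genes with at least 1 count gave 379, 50 cells a sum 7, no family covariate 3, raised thresholds 1, called doublets kept 11, without cells holding the 5 named UMIs 14, and 0 to 17 with a mouse left out (highest without F5 replicate 1). The replicate block, which pairs mice of the same number, raised the mature count to 1561 and the DP count to 4 and let Ly6c2 pass in the mature gates (2.33, edgeR, adjusted p = 0.00130). In the mature gates same-numbered mice deviated together with r = 0.580 for OT-II and OT-I, 0.112 for AND and F5 and 0.0149 for the MHC-deficient pair, and in DP TCRb-high cells with 0.318 for AND and F5 and -0.0026 for the MHC-deficient pair. For AND and F5 the number is also the experiment, while in the other 2 families both numbers fall in 1 experiment, so the block is a pairing by batch for that family and a shared number elsewhere.

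For AND against MHCI-/- the 336 calls became 576 with genes of at least 1 count, 198 with an experiment covariate, 192 without cells holding the 5 named UMIs and 96 to 169 with a mouse left out (lowest without AND replicate 2). MHCI-/- against sorted B6 mice, 3 calls, gave 5 by DESeq2, 22 with genes of at least 1 count and 5 with raised thresholds. OT-II against unsorted B6 mice, 3 calls, gave 12, 71, 5 and 6 by DESeq2, with genes of at least 1 count, and with raised and lowered thresholds, and 2 to 87 with a mouse left out (highest without B6 replicate 4). F5 against MHCII-/-, 28 calls, gave 51 by DESeq2, 16 with library size alone, 184 with genes of at least 1 count, 15 with the replicate block, 3 with an experiment covariate, 45 with raised thresholds and 3 to 15 with a mouse left out (lowest without F5 replicate 2). MHCII-/- against sorted B6 mice, 3 calls, gave 7 by DESeq2, 17 with genes of at least 1 count and 1 with 50 cells a sum, with the replicate block, with an experiment covariate, with raised and with lowered thresholds and with any 1 of its 4 mice left out. OT-I against unsorted B6 mice, 7 calls, gave 36 by DESeq2, 73 with genes of at least 1 count, 0 with 50 cells a sum, with an experiment covariate and without cells holding the 5 named UMIs, 3 with lowered thresholds and 8 to 28 with a mouse left out (highest without OT-I replicate 2).

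For surface protein, raised thresholds took Ly-6A/E of CD8 SP against CD4 SP CD24-low cells from -2.01 to -1.79 (exact permutation, adjusted p = 0.0781), Ly-6C between the CD4 SP gates from 0.69 to 0.34 (0.0781), Ly-6C between the CD8 SP gates from 0.75 to 0.43 (0.176) and Ly-6A/E of CD8-fated against CD4-fated mice in DP TCRb-high cells from -0.66 to -0.64 (0.0794), none of which passed any more. Leaving out AND replicate 2 and both OT-I mice, chosen after seeing the data, gave -2.27 for the first of these (exact permutation, adjusted p = 0.125, from the smallest p that 5 mice allow), -2.87 and -0.45 for Ly-6A/E and 0.37 and 0.22 for Ly-6C of CD8-fated against CD4-fated mice in mature and DP TCRb-high cells. Lowered thresholds took Ly-6A/E between the CD8 SP gates from 0.38 to 0.73 (exact permutation, adjusted p = 0.0195) and that of the mature lineage gates from -3.04 to -2.86 (0.0571). Lowered thresholds turned 3 differences of Ly-6C near 0, from 0.07 to -0.0099 between the DP gates, from -0.04 to 0.027 from DP TCRb-high to CD4 SP CD24-high and from 0.05 to -0.14 between CD24-low lineages, and Ly6c1 in cells with a Foxp3 UMI from -0.30 to 0.29. With a mouse left out, Ly-6A/E of CD8 SP against CD4 SP ran from -2.31 to -1.93, and cells with against without a Ly6c1 or Ly6c2 UMI from 0.94 to 1.08 for Ly-6A/E and from 1.60 to 2.04 for Ly-6C, where 6 mice cannot go below an adjusted p of 0.0625. The lineage differences of Ly-6A/E ran from -3.43 to -2.80 in mature gates and from -0.80 to -0.54 in DP TCRb-high cells (highest without OT-I replicate 1, adjusted p = 0.0952). Ly-6C ran from -0.083 to 0.010 from DP TCRb-high to CD4 SP CD24-high and from -0.29 to 0.25 between the CD24-low lineages, turning without B6 replicate 3 in both, Ly6c1 in cells with a Foxp3 UMI from -0.45 to 0.023 and Ly-6C in them from -0.15 to 0.10. At the other clustering resolution 4 of 49 levels moved by over 1 SD, in the 7 of 16 classes that had a counterpart of the same name, and the B cell-like, NKT-like, interferon-like, DN-like and mature SP-like classes had none. Thinned to 2000 UMIs, 16 of 30 shares of cells moved by over 1 SD.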

Other observations

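Double-negative cells with low TCRb, a gate that entered no comparison, had more Ly-6A/E than DP TCRb-low cells of the same mouse, while Ly-6C varied widely between mice. Ly-6A/E in that gate was 78.8, 112, 138, 126 and 107 per 10000 in B6 replicates 1 to 5. Over 16 mice with at least 20 such cells it ran from 48.6 in OT-I replicate 2 to 231 in OT-II replicate 2. In mice sorted as CD5+TCRb+ cells, Ly-6C in the gate was 30.4, 36.6 and 42.4 per 10000 in B6 replicates 1 to 3, 88.3 and 76.7 in MHCII-/- and 28.1 and 5.40 in MHCI-/- mice. In unsorted mice it was 16.3 and 11.9 in B6 replicates 4 and 5, 9.99 in AND replicate 1, 10.3 and 11.9 in F5, 10.3 and 7.88 in OT-II and 2.97 and 4.62 in OT-I mice. The OT-I values and that of MHCI-/- replicate 2 lay close to DP TCRb-low cells of the same mice (2.29, 4.24 and 4.09). The sort, which differs between these mice, can set which cells reach this gate, and the cell types in it were not resolved here.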
